A study of Homo sapiens with 12 samples.

Results

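Transcripts that GENCODE release 29 annotates as nonsense_mediated_decay (NMD) were followed in HEK293T, an established human embryonic kidney line, after knockdown or inhibition of RNA polymerase III (Pol III). Members were the rows of the deposited transcript table with that type, matched by identifier without version, whose mean abundance over the 12 libraries was at least 1 TPM (an abundance corrected for transcript length and scaled to the same total in each library). The rule kept 2941 transcripts of 2132 genes, out of 14700 NMD rows and 194142 rows in all. The members were thus chosen by their mean TPM, and their abundance is given below as a description. FUK-205 (0.9985 TPM), ERCC2-212 (0.999 TPM) and MRM3-203 (0.9997 TPM) lay just outside the threshold, and PRKRA-202 (1.0 TPM), MLST8-222 (1.0004 TPM) and DUSP12-204 (1.0025 TPM) just inside.

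In 1 experiment, the siPOLR3A group was transfected with siRNA targeting POLR3A, the gene for the largest Pol III subunit, the siControl group with control siRNA, and both were collected after 2 days. In the other, cells received 0.1% DMSO, the vehicle, or 25 µM ML60218, a small-molecule Pol III inhibitor, and were collected after 4 hours. All cells were HEK293T, and each of the 4 groups held 3 libraries of strand-specific mRNA sequencing, with 37008325 to 49479476 estimated reads each. Nothing in the labels says that libraries of a group came from separate cultures, so p-values measure only the spread between these libraries, which may be technical.

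POLR3A stood at 16.2, 15.3 and 14.8 TPM in siControl and at 3.74, 3.56 and 2.85 TPM in siPOLR3A, a log2 change of -2.36 ± 0.108 (SE; edgeR's quasi-likelihood test, Benjamini-Hochberg adjusted p = 1.94e-05). Of the markers of the labelled kidney epithelial type, KRT18 was at 25.5 to 35.4 TPM as group means, whereas PAX8 was at or below 0.136 TPM. The leukocyte gene PTPRC was at 0 in all libraries. COL1A1, a fibroblast collagen gene, stood at 19.0 to 26.3 TPM, whereas PDGFRB, listed with it, was at or below 0.372 TPM as group means. On the same measure PAX2, KRT8, LHX1, EPCAM and CDH1 were at 0.994 to 5.69 TPM, and NEFL and NEFM at 35.7 to 92.2 TPM. The tubule genes UMOD, AQP1 and SLC34A1 were at or below 0.234 TPM, and LRP2 at 3.43 to 9.88 TPM. CD3E, PECAM1, VWF and ALB, of other cell types, were at or below 0.123 TPM.

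Nonsense-mediated decay degrades mRNAs on which translation ends too early. A stop codon upstream of an exon-exon junction leaves an exon junction complex on the mRNA after the first round of translation, and UPF1, UPF2, UPF3B and the SMG proteins use it to mark the RNA for decay. Many splicing regulators limit their own expression by splicing in an exon that carries a stop codon. The annotated type is a prediction from transcript structure, and steady-state RNA does not measure decay.

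The stop codons of some members are shown because they define the type and because later results turn on these transcripts. Each line gives 15 bases before the stop, the stop codon in capitals and 12 bases after it, 5′ to 3′ on the transcript strand, from the GENCODE 29 transcript sequences (GRCh38).
SRSF3-203: cttctcaccaccctcTGAatctgcattagc
RBM39-206: gtgaactgtcaatcaTAAggatgagaacaa
NCBP3-204: ggatccatccaggacTGAgtgtatgacaaa
FOXK2-202: tggagttgcctcagtTGAcacagcaggccc
DNAJC5-202: gagaggggagggcacTGAcactgtgccgcg
SLC38A2-208: tttgaagactgccaaTGAaggagggtcttt
SRP19-208: aagtgtttatgttttTAActgttcaggctg
SNRNP70-202: cagctggcttgcagcTGAtgcttacgctcc
HNRNPDL-202: aattaccagccatacTAAaggagaacattg
SRSF2-208: ggagcggtgtcctctTAAgaaaatgatgta

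In the first 5, the stop lies in an exon that overlaps no exon of a protein_coding transcript of the gene. SRSF3-203 ends translation in exon 4 of 7, a 456-nt exon at chr6:36599821-36600276 on the plus strand, with its stop 548 nt before the last junction. RBM39-206 does so in exon 3 of 18, a 73-nt exon at chr20:35740525-35740597 on the minus strand. The NCBP3-204 stop lies in a 33-nt exon (exon 2 of 8) at chr17:3824060-3824092 on the minus strand. In SLC38A2-208, SRP19-208 and SNRNP70-202, the stop lies in an exon that overlaps coding exons but is not the stop of a protein_coding transcript. HNRNPDL-202 and SRSF2-208 use the stop of a protein_coding transcript and have 2 junctions after it, so splicing in the 3′ UTR sets their type.

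Of 2937 members with an annotated stop and junction, 2909 (99.0%) had the stop more than 50 nt before the last junction, which is how the type is assigned, against 0.6% of 21781 protein_coding transcripts with a mean of at least 1 TPM. The median distance was 341 nt, and 712 members had 1 junction after the stop. A stop of their own in an exon outside every protein_coding exon was found in 688 members, a stop of their own in an exon overlapping such exons in 1916, and a stop shared with a protein_coding transcript in 333. Members were shorter than protein_coding transcripts with a mean of at least 1 TPM, with median lengths of 1329 and 2232 nt. Transcript support was best (level 1) for 636 members and weakest (level 5) for 791, and 68 were readthrough transcripts that join neighbouring genes.

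Most members were a small part of their gene. The median mean abundance was 2.52 TPM, and the median share of the gene's TPM was 7.06%, with quartiles of 3.35% and 16.0%. In 310 genes the NMD rows together exceeded the protein_coding rows, and 300 members were the most abundant transcript of their gene. A value of 0 TPM in at least 1 library was listed for 354 members. Such zeros can come from the assignment of reads among similar transcripts, whose uncertainty the table does not hold and the p-values below do not include.

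The 5 most abundant members belonged to genes for RNA-binding proteins, a ribosomal protein and a subunit of cytochrome c oxidase. HNRNPA1-205 had the highest mean, 771 TPM, and carried 58.1% to 65.7% of the TPM of HNRNPA1 in the 12 libraries. HNRNPA2B1-203 followed with 507 TPM. RPS3-210 (328 TPM), COX6C-206 (309 TPM) and RPS3-218 (281 TPM) came next, and COX6C-206 carried 84.7% to 88.9% of its gene. HNRNPA2B1-203 was at 497, 502 and 502 TPM in siControl and at 393, 396 and 403 TPM in siPOLR3A, a log2 change of -0.37 that passed the test (edgeR's quasi-likelihood test, Benjamini-Hochberg adjusted p = 0.00116).

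Summed over members, the share of their parent genes' TPM was 10.25%, 10.36% and 10.24% in siControl and 10.36%, 10.47% and 10.61% in siPOLR3A, which touch at 10.36% and differ by 0.19 percentage points on average. It was 10.13%, 10.19% and 10.42% in DMSO and 10.88%, 10.81% and 11.18% in ML60218, which do not overlap and differ by 0.71 points. The median share of a single member was 6.92% to 7.01% in siControl and 7.24% to 7.41% in siPOLR3A, and 6.50% to 6.70% in DMSO and 7.13% to 7.39% in ML60218. These sums are descriptions of chosen members and have no test.

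**Figure D1:**
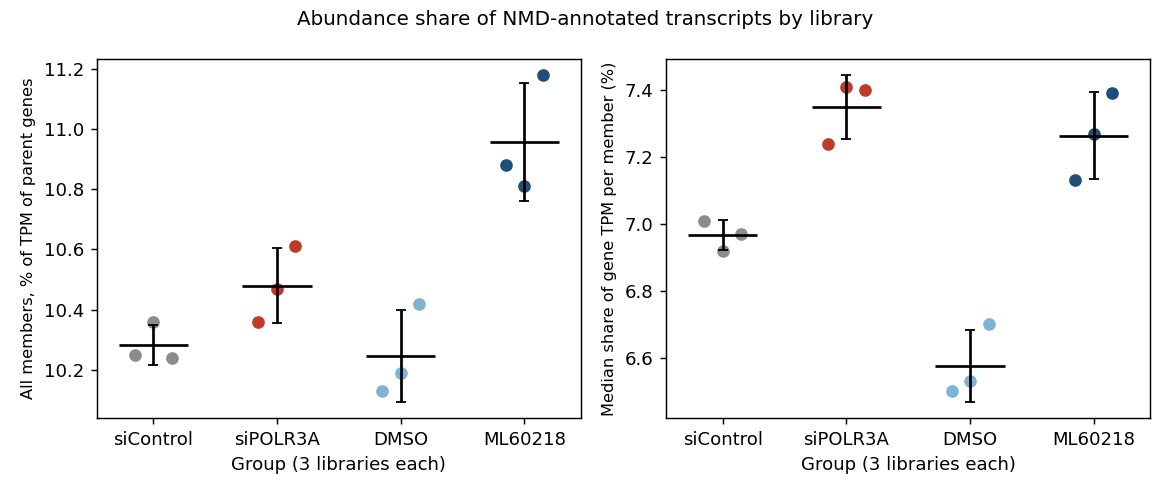
Share of parent-gene TPM carried by all members together (left) and median share of gene TPM per member (right), in percent, for each library (points), with the mean (line) and SD (bars) of each group; the axes do not start at 0. ML60218 libraries lie at 10.81% to 11.18% on the left, above the DMSO libraries at 10.13% to 10.42%.

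After POLR3A knockdown, members changed level in both directions. Of 2883 members tested, 123 rose and 142 fell (9.19%; edgeR's quasi-likelihood test, adjusted over all transcripts). The background was 13.1% of all 58745 transcripts tested and 17.3% of those with a mean of at least 1 TPM, of which 7.37% rose and 9.92% fell. The members' own shares were 4.27% and 4.93%. With 1 library left out in turn, 139 to 161 members were called. Falls outnumbered rises without siControl replicate 1 (79 higher, 82 lower) and without siPOLR3A replicates 1 (61 and 78), 2 (63 and 93) and 3 (63 and 84), whereas rises outnumbered falls without siControl replicates 2 (75 and 72) and 3 (87 and 72). The median log2 change was 0.025 over members, -0.037 over protein_coding and 0.069 over retained_intron transcripts with a mean of at least 1 TPM.

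Relative to their genes, 34 of 2842 members rose and 9 fell after knockdown (1.51%), close to the background of 1.55% of all transcripts tested and 1.9% of those with a mean of at least 1 TPM (1.15% higher, 0.75% lower). Here a transcript's estimated counts were tested against the change of its own gene, and the calls numbered 6 to 9 with 1 library left out. Without siControl replicates 1, 2 and 3 they were 6 higher and 2 lower, 5 and 1, and 8 and 1. Without siPOLR3A replicates 1, 2 and 3 they were 4 and 3, 2 and 4, and 4 and 2, so the balance turned without siPOLR3A replicate 2. With the replicate block no member was called. The test first chosen for this question, with the variance pooled within genes, called 23 members; it called more unchanged than changed transcripts in simulated counts, and was replaced after its calls had been seen. The share of gene TPM did not overlap between the groups for 413 members that were higher and 265 that were lower, 14.5% and 9.32% of those tested, where the background was 14% and 12.8%.

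FBXO22-207, a transcript of the gene for a substrate receptor of a ubiquitin ligase, showed the largest fall relative to its gene among called members with reads in every library. It was at 33.3, 30 and 32.4 TPM in siControl and at 13.9, 12.9 and 13.1 TPM in siPOLR3A. These groups are far apart, whereas DMSO (32.9 to 33.9 TPM) and ML60218 (34.9 to 41.7 TPM) stayed near siControl. The log2 change relative to the gene was -1.36 ± 0.0495 (SE; edgeR's quasi-likelihood test, Benjamini-Hochberg adjusted p = 0.00148), while the gene as a whole changed by 0.08.

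NCBP3-204, from the gene for a cap-binding protein, carried 15.6%, 13.3% and 14.6% of its gene in siControl and 8.12%, 7.54% and 9.66% in siPOLR3A, with no overlap. Its log2 change relative to NCBP3 was -0.85 ± 0.128 (edgeR's quasi-likelihood test, Benjamini-Hochberg adjusted p = 0.0422). SLC35G1-203, from a solute carrier gene, fell by 0.60 (adjusted p = 0.0327). Neither call held with any 1 library left out, where the adjusted p was 0.0886 to 0.147 for NCBP3-204 and 0.0809 to 0.123 for SLC35G1-203, and their calls were lost in 10 and 8 of 14 alternatives (adjusted p up to 0.468 and 1.0). The FBXO22-207 call was lost in 1 of 14, with the replicate block. CYTH2-202 and SARNP-202 were listed at 0 in all 3 siPOLR3A libraries. Their summed reads in siControl were 340 and 239, so that against a floor of 3 counts over the group they were at least 112-fold and 78.6-fold lower in siPOLR3A. Both passed the filter on low counts through siControl alone. Their calls were lost in 7 and 8 of 14 alternatives, among them each left-out library.

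Among the largest relative rises, FOXK2-202, from a forkhead transcription factor gene, was at 0.995, 1.21 and 1.01 TPM in siControl and at 3.6, 4.72 and 3.49 TPM in siPOLR3A, without overlap. It rose by 2.18 ± 0.186 relative to FOXK2 (edgeR's quasi-likelihood test, Benjamini-Hochberg adjusted p = 0.00966). SRP19-208, from the gene for a signal recognition particle subunit, carried 0.849%, 0.657% and 0.737% of SRP19 in siControl and 3.22%, 3.51% and 3.99% in siPOLR3A. Its relative rise was 1.92 ± 0.117 (adjusted p = 0.00504), and its own level rose by 1.10 while the gene fell by 0.80. SRP19 encodes a protein that binds 7SL RNA, a Pol III transcript. The SRP19-208 call was lost in 1 of 14 alternatives, with the replicate block, and that of FOXK2-202 in 3, among them without siControl replicates 1 and 3.

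In BTBD1 and TUBB6 the share rose while the gene fell and the member's own level did not pass the test. BTBD1-204, from a gene for a BTB-domain protein, carried 2.53% to 2.86% of BTBD1 in siControl and 7.3% to 8.17% in siPOLR3A. Its relative rise of 1.60 passed (edgeR's quasi-likelihood test, Benjamini-Hochberg adjusted p = 0.0183), the level change of 0.51 did not (adjusted p = 0.112), and the gene fell by 1.08. TUBB6-205, from a beta-tubulin gene, carried 1.91% to 2.88% and then 7.02% to 9.96% of TUBB6, with a relative rise of 2.18 (adjusted p = 0.0297) and a level change of 0.63 (adjusted p = 0.216), while TUBB6 fell by 1.51. ZNF276-204 rose by 1.72 relative to its gene (adjusted p = 0.0165). SARNP-205, from an RNA export gene, rose by 2.73 relative to SARNP (adjusted p = 0.0435), whereas SARNP-202 of the same gene was at 0. Each of these 4 calls, of BTBD1-204, TUBB6-205, ZNF276-204 and SARNP-205, was lost in 8 of 14 alternatives, also whenever a single library was dropped. Their highest adjusted p-values were 0.468, 0.229, 0.211 and 0.263.

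Because transcripts of a gene share reads, all NMD rows of each gene were also summed and tested as 1 type against the gene. This test was added after the single-transcript calls had been seen. After knockdown, the NMD type rose in 85 and fell in 35 of 2064 genes (5.81%), with a background of 4.13% over all types of all genes (2.56% higher, 1.57% lower). With 1 library left out, 55 to 71 genes were called. The protein_coding type of the same genes rose in 40 and fell in 56 of 2066. Their remaining types, summed as 1, rose in 85 and fell in 47 of 1679 (7.86%), a larger part than for NMD.

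Under this test, genes were named from those called whose NMD share did not overlap between the groups. The 12 largest rises among them were in CHD1, FOXK2, TUBB6, SRP19, GABARAP, TTC13, BTBD1, GRSF1, PTBP1, HCFC2, BTBD2 and KCNC4. The 6 largest falls were in CYTH2, IFT22, FBXO22, PHF14, ARFGAP2 and LZTFL1. FBXO22, FOXK2, TUBB6, SRP19, BTBD1, GRSF1, HCFC2 and CYTH2 were called under all 10 alternatives tried. The CYTH2 change of -9.9 equals that of CYTH2-202, which was at 0 in all siPOLR3A libraries and passed the filter through siControl alone. Those alternatives reuse the same zeros, so they are no further support for CYTH2. GRSF1 encodes an RNA-binding protein of mitochondrial RNA granules, and its NMD share was 1.68%, 1.44% and 2.33% in siControl and 6.1%, 5.02% and 4.89% in siPOLR3A. HCFC2, the gene for a host cell factor paralogue, went from 6.63%, 10.5% and 6.67% to 21.0%, 26.0% and 22.0%. GABARAP, which encodes an autophagosome protein, went from 0.739% to 1.81% in siControl to 4.32% to 5.91% in siPOLR3A, with a relative change of 1.89 (edgeR's quasi-likelihood test, Benjamini-Hochberg adjusted p = 0.0156). CHD1 was at 0 in all siControl libraries, with 62 reads of CHD1-209 in siPOLR3A, at least 20.9-fold higher. It thus passed the filter on low counts only through the group where it is high. The CHD1 call was lost in 3 of 10 alternatives, as was that of GABARAP. Calls of PHF14 and KCNC4 were lost in 4, of IFT22, ARFGAP2 and PTBP1 in 6, and of TTC13, BTBD2 and LZTFL1 in 7.

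**Figure D2:**
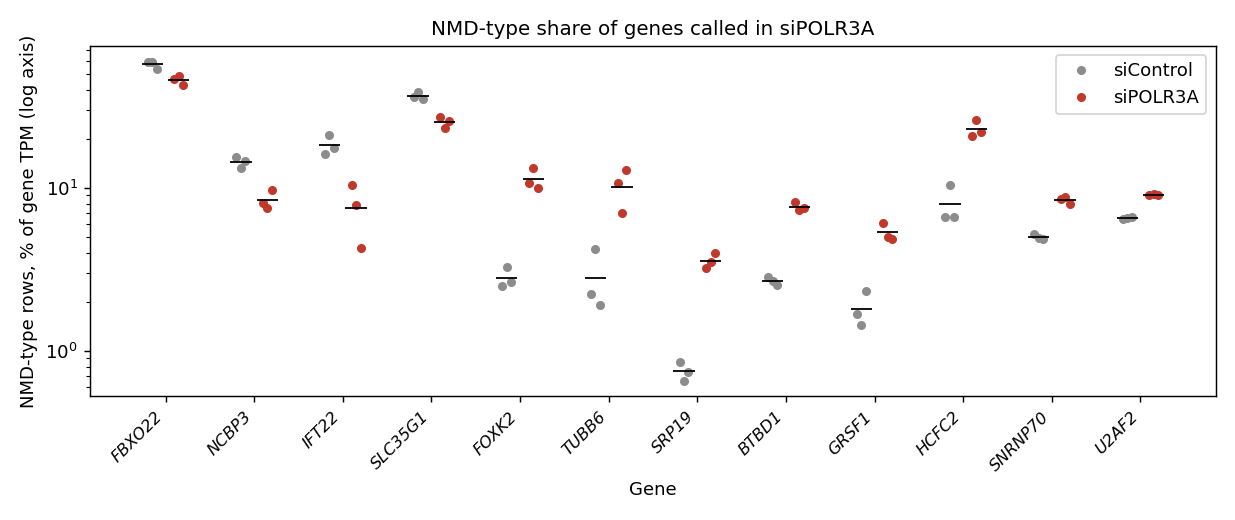
NMD-type rows as a percentage of gene TPM (log axis) for 12 genes called in siPOLR3A, with the 3 siControl (grey) and 3 siPOLR3A (red) libraries as points and group means as lines. The groups do not overlap in any of the 12 genes, which was a condition for choosing the largest rises and falls. FBXO22, NCBP3, IFT22 and SLC35G1 are lower in siPOLR3A and the other 8 higher.

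After ML60218, 47 of 2885 members rose in level and 18 fell (2.25%; edgeR's quasi-likelihood test, adjusted over all transcripts). The background was 3.23% of all transcripts tested and 4.23% of those with a mean of at least 1 TPM (1.38% higher, 2.85% lower), among which protein_coding transcripts rose 347 times and fell 1117 times. None remained when any of the 3 DMSO libraries or ML60218 replicate 2 was left out, and 11 members were called without ML60218 replicate 3. The median log2 change was 0.086 over members, -0.05 over protein_coding and 0.018 over retained_intron transcripts with a mean of at least 1 TPM.

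No member passed the share test after ML60218, 0 of 2841, and neither did any of the 54811 transcripts tested (0%). At an unadjusted p under 0.05, 421 members passed, 325 of them higher. The test with variance pooled within genes, chosen first, called 20 members (16 higher), and the 3 limma tests called 5 to 19. The median change relative to the gene was 0.106 over members against 0.005 over all tested transcripts with a mean of at least 1 TPM. Among the latter it was 0.06 over retained_intron and -0.004 over protein_coding transcripts. The members' median stayed between 0.088 and 0.123 when any 1 library was left out. After knockdown the median was 0.048 over members and 0.06 over retained_intron transcripts.

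Groups were also compared by overlap alone. The share of gene TPM was higher in all ML60218 than in all DMSO libraries for 478 members (16.8%) and lower for 180 (6.34%), with a background of 11.6% and 10.5%. Retained_intron transcripts had 16% higher and 7.98% lower, and protein_coding transcripts had 8.63% higher and 12.4% lower. Members above 0 made up 62.9% of those tested, against 57.3% of retained_intron and 47.4% of protein_coding transcripts. After knockdown the same shares were 54.9%, 56.4% and 48.9%.

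**Figure D3:**
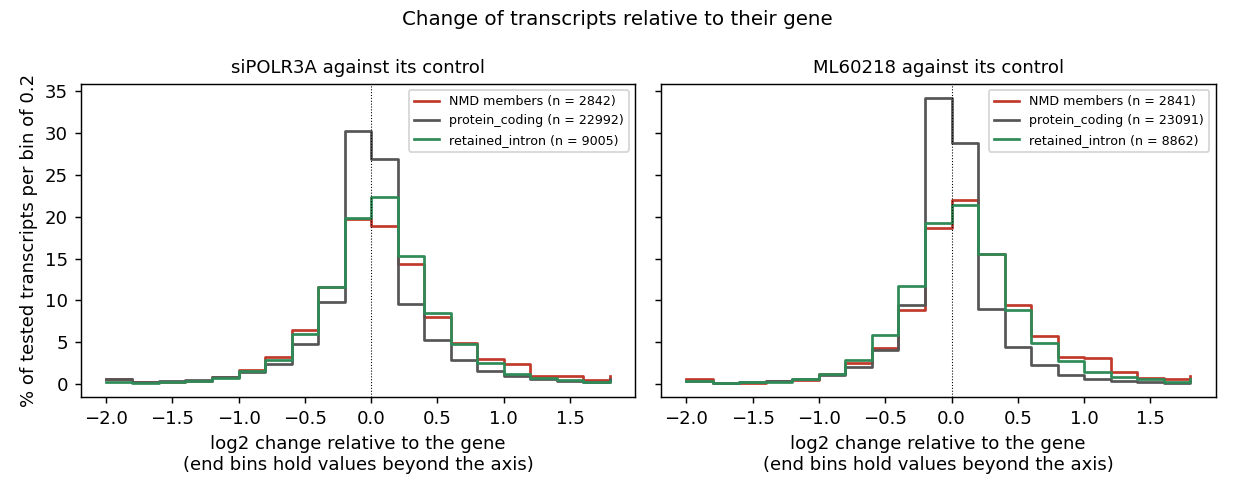
Distribution of the log2 change relative to the gene for members (red), protein_coding (grey) and retained_intron (green) transcripts with a mean of at least 1 TPM, as the percentage of tested transcripts in bins of 0.2, for siPOLR3A (left) and ML60218 (right). In ML60218 the members' curve lies to the right of the protein_coding curve, with 62.9% of members above 0.

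The size of the relative change varied with the place of the stop and with abundance. Members whose stop lies in an exon outside every protein_coding exon had a median of 0.19 after ML60218 and 0.10 after knockdown. Those with their own stop in an overlapping exon had 0.09 and 0.03, and those sharing the stop of a protein_coding transcript had 0.10 and 0.02. Over members with a mean of 1 to 2 TPM the median was 0.17 after ML60218 and 0.09 after knockdown, and over those with at least 20 TPM it was 0.01 and -0.02. Whether abundance accounts for the difference between stop positions was not tested.

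With NMD rows summed per gene, the type rose in 31 and fell in 6 of 2064 genes after ML60218 (1.79%), against a background of 0.928% over all types of all genes (0.694% higher, 0.235% lower). This test was added after the single-transcript test had given no call, and 1 to 17 genes were called with 1 library left out: 2, 3 and 1 without DMSO replicates 1, 2 and 3, and 17, 4 and 6 without ML60218 replicates 1, 2 and 3. Each gene named below for ML60218 lost its call in at least 2 of the 10 alternatives where these were tallied. The protein_coding type of the same genes rose in 2 and fell in 18 of 2068. Their remaining types, summed as 1, rose in 35 and fell in 2 of 1676 (2.21%), so the rise was not particular to NMD rows.

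SLC38A2 encodes a stress-responsive amino acid transporter. Its NMD share was 1.47%, 1.14% and 1.25% in DMSO and 4.77%, 6.2% and 8.8% in ML60218. The relative change was 2.35 (edgeR's quasi-likelihood test, Benjamini-Hochberg adjusted p = 0.0306), and the gene itself rose by 0.58.

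MAGOHB, a core subunit of the exon junction complex, carried 8.22%, 8.19% and 8.36% of its TPM in NMD rows in DMSO and 20%, 25.2% and 33.4% in ML60218. The relative change was 1.44 (edgeR's quasi-likelihood test, Benjamini-Hochberg adjusted p = 0.0107), and the gene's level changed by -0.03. In siControl and siPOLR3A the share was 16.3% to 20.1% and 16.9% to 18.9%, which overlap, and the difference between the 2 comparisons passed its own test (siPOLR3A change minus ML60218 change -1.38, adjusted p = 0.00195).

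XPO1, the main nuclear export receptor, went from 0.757%, 0.617% and 0.772% to 1.41%, 1.44% and 1.96% (relative change 1.25; edgeR's quasi-likelihood test, Benjamini-Hochberg adjusted p = 0.0218). EIF3E, a translation initiation factor subunit, went from 8.51% to 9.99% in DMSO to 16.4% to 23.1% in ML60218 (1.13, adjusted p = 0.0291). RACK1, a ribosome-bound scaffold, went from 0.436% to 0.543% to 0.776% to 1.35% (1.25, adjusted p = 0.0372). ML60218 was higher without overlap in all 3 genes, which was a condition for naming them.

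Further rises were called in ATRX, ECHDC1, RRM1, FAM76B and NDUFA12. In ATRX and NDUFA12, members held 40.7% and 32.6% of the NMD reads, and rows under 1 TPM the rest. The 6 falls were in JKAMP, BAZ1A, INPP5K, SEC31A, MKLN1 and NCBP3. JKAMP-211 and BAZ1A-210 were listed at 0 in all ML60218 libraries, with 74 and 172 summed reads in DMSO. Both rows thus passed the filter on low counts through DMSO alone, and BAZ1A-210 was also at 0 in all siControl libraries. The calls of JKAMP and BAZ1A were lost in 8 and 6 of 10 alternatives. SEC31A, a coat protein of vesicles leaving the endoplasmic reticulum, went from 8.23%, 8.13% and 7.56% to 2.27%, 2.78% and 2.41% (relative change -1.30; edgeR's quasi-likelihood test, Benjamini-Hochberg adjusted p = 0.038). The siControl libraries of SEC31A ranged from 2.97% to 7.16%.

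**Figure D4:**
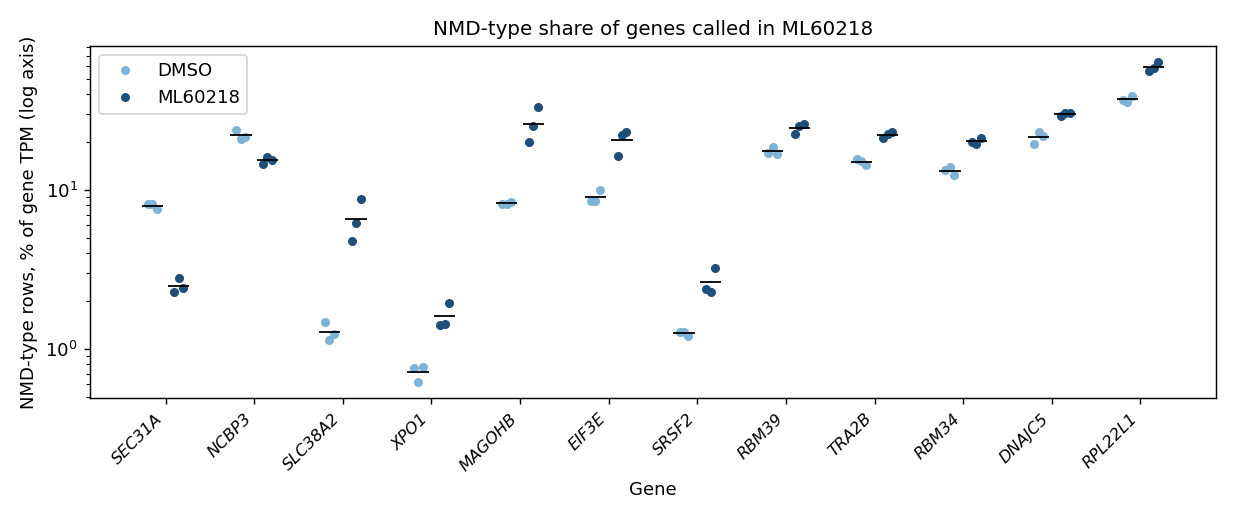
NMD-type rows as a percentage of gene TPM (log axis) for 12 genes called in ML60218, with the 3 DMSO (light blue) and 3 ML60218 (dark blue) libraries as points and group means as lines. The groups do not overlap in any of the 12 genes, which was a condition for choosing the largest rises and falls. SEC31A and NCBP3 are lower in ML60218 and the other 10 higher.

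The NMD share was called in both comparisons in 5 genes, 3 of them in the same direction. Beside this, 5.81% of 2064 genes were called after knockdown and 1.79% of 2064 after ML60218. Whether 5 shared genes are more than expected by chance was not tested. RBM39, a splicing factor with 6 members, went from 19.0%, 17.0% and 17.1% to 20.5%, 22.3% and 22.9% after knockdown and from 17.1%, 18.6% and 16.9% to 22.6%, 25.4% and 26.1% after ML60218. DNAJC5, a synaptic vesicle chaperone gene, rose from 27.0% to 27.7% to 36.1% to 38.3% after knockdown and from 19.5% to 23.2% to 29.4% to 30.6% after ML60218. NCBP3 fell in both, by 0.85 and 0.51 on the log2 scale. MARS1, the methionyl-tRNA synthetase gene, changed by -0.24 and 0.46, and SLC35G1 by -0.59 and 0.55 (edgeR's quasi-likelihood test; adjusted p of the difference 0.000588 and 9.25e-05). 

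The siPOLR3A change minus the ML60218 change was tested on all 12 libraries. By level it was called for 307 of 2934 members (112 higher, 195 lower; 10.5%), with a background of 12.3% of all transcripts and 17.8% of those with a mean of at least 1 TPM (8.25% higher, 9.54% lower). Relative to the gene it was called for 43 of 2894 members, 21 higher and 22 lower (1.49%), with a background of 1.64% and 2.26% (1.06% higher, 1.2% lower). With NMD rows summed per gene it was called in 91 of 2081 genes, 33 higher and 58 lower (4.37%), against 3.14% over all types of all genes (1.34% higher, 1.81% lower). The 2 experiments differ in agent and in time, 2 days and 4 hours, which cannot be told apart here.

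Splicing regulators (the SR, HNRNP, RBM, LUC7L and related genes) had 46 parent genes with 78 members, among them the readthrough genes HNRNPUL2-BSCL2 and RBM14-RBM4. Their NMD share rose in 10 and fell in 1 of 45 genes after knockdown, where the background was 4.12% higher and 1.7% lower over all genes with a member, and the medians were 0.14 and 0.05. With 1 library left out, 4 to 7 rose and 0 to 1 fell. After ML60218 it rose in 5 and fell in 0 of 45, where the background was 1.5% higher and 0.291% lower, and the medians were 0.19 and 0.10. Without ML60218 replicate 1, 4 of 45 rose, and without any other single library 1 rose.

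After knockdown the called rises included PTBP1, U2AF2, TIA1, SF1 and SNRNP70. U2AF2, which recognises the 3′ splice site, went from 6.44%, 6.52% and 6.62% to 9.06%, 9.17% and 9.06% (relative change 0.87; edgeR's quasi-likelihood test, Benjamini-Hochberg adjusted p = 0.00304). SNRNP70, a U1 snRNP protein, went from 5.25%, 4.93% and 4.83% to 8.55%, 8.81% and 7.96% (0.71, adjusted p = 0.000398). After ML60218, SNRNP70 was at 5.62% to 6.05% against 5.55% to 5.99% in DMSO, which overlap. The fall was in HNRNPA2B1 (-0.15, adjusted p = 0.0322).

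After ML60218 the called rises were SRSF2, RBM34, RBM39, TRA2B and LUC7L3. SRSF2, an SR protein, went from 1.28%, 1.27% and 1.21% to 2.39%, 2.29% and 3.25% (relative change 1.07; edgeR's quasi-likelihood test, Benjamini-Hochberg adjusted p = 0.0277). TRA2B, a splicing activator, went from 15.7%, 15.2% and 14.3% to 21.2%, 22.5% and 23.1% (0.47, adjusted p = 0.0306). SRSF3 and HNRNPDL, chosen here after their values were seen, did not pass: SRSF3 went from 5.26%, 5.31% and 5.67% to 9.17%, 11.5% and 17.7% (1.29, adjusted p = 0.0847), and HNRNPDL from 4.4%, 5.02% and 4.57% to 6.95%, 9.24% and 14.5% (1.11, adjusted p = 0.13). In both genes ML60218 replicate 3 was the highest library.

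**Figure D5:**
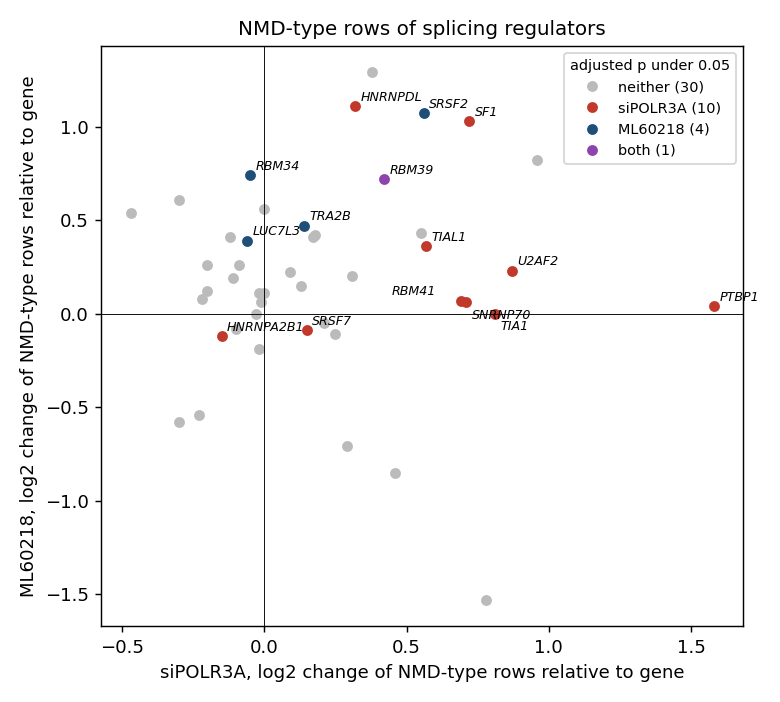
Log2 change of NMD-type rows relative to the gene in siPOLR3A (horizontal) and ML60218 (vertical) for 45 splicing regulator genes, coloured by adjusted p under 0.05. Of these genes, 25 lie above 0 in siPOLR3A and 32 in ML60218, and RBM39 was called in both.

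The other lists were small. Of 22 genes with symbols starting RPL or RPS, which include the paralogues RPL7L1 and RPL22L1, the NMD share rose in RPL3 and RPL27A and fell in RPL13 after knockdown (2 higher and 1 lower of 22, beside 4.12% and 1.7% of genes with a member). After ML60218 it rose in RPL13A and RPL22L1 (2 higher and 0 lower, beside 1.5% and 0.291%). With 1 library left out, 0 to 1 rose and 0 to 1 fell after knockdown, and 0 to 1 rose after ML60218. RPL22L1 went from 37.1%, 36.0% and 39.2% in DMSO to 56.4%, 58.9% and 64.0% in ML60218 (relative change 0.75; edgeR's quasi-likelihood test, Benjamini-Hochberg adjusted p = 0.0425). Of 6 aminoacyl-tRNA synthetase genes, MARS1 alone was called, in opposite directions. It was lower after knockdown, beside 1.7% of genes with a member, and higher after ML60218, beside 1.5%. Of the Pol III subunit genes, POLR3E had a member row and was not called: its NMD type changed by 1.13 after knockdown (adjusted p = 0.222) and by 0.19 after ML60218 (adjusted p = 1.0).

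Genes of the decay pathway rose and fell in both comparisons. Of 28 listed factors, 9 rose and 10 fell after knockdown and 3 rose and 9 fell after ML60218, where 56.6% (27.4% higher, 29.2% lower) and 39% (18.1% higher, 20.9% lower) of all genes tested were called. After knockdown, the exon junction complex genes CASC3 (-0.80) and RBM8A (-0.75) fell and MAGOH rose by 0.44, with CASC3 at 93.0 ± 3.83 TPM in siControl and 54.6 ± 0.441 TPM in siPOLR3A (SD, n = 3). SMG5, which recruits decay enzymes, fell by 0.45. After ML60218, EIF4A3 (-0.33), MAGOH (-0.33), RBM8A (-0.30) and SMG8 (-0.40) fell and NBAS rose by 0.34. UPF1, the central helicase, did not pass in either comparison (0.32, adjusted p = 0.146, and -0.24, adjusted p = 0.127; edgeR's quasi-likelihood test, Benjamini-Hochberg).

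Genes known as natural NMD targets outside the annotated type rose in 5 of 9 and fell in 1 of 9 tested in each comparison, beside 27.4% higher and 29.2% lower of all genes tested after knockdown and 18.1% and 20.9% after ML60218. After ML60218, ATF3 went from 19.5 ± 0.0497 to 108 ± 30.7 TPM (SD, n = 3; log2 change 2.28), DDIT3 from 10.1 ± 0.357 to 48.0 ± 7.25 TPM (2.10), and ASNS from 81.6 ± 3.52 to 210 ± 12.9 TPM (1.01). These 3 genes are also transcriptional targets of the integrated stress response, and the part of transcription in their rise was not tested. After knockdown, GADD45B rose by 0.92 and GADD45A fell by 0.28. GAS5, SNHG1, SNHG12, SNHG8 and ZFAS1 were not analysed here.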

How the data were processed

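The deposited table gave, for each library and transcript, an estimated count and a TPM value made by the authors. Per the file headers, these are estimated counts and TPM per transcript; the quantifier and its transcript release are not given in the sources used here. The submitters' processing notes name hg38, bcl2fastq 2.20, Trim Galore and DESeq2. Identifiers matched GENCODE 29 (GRCh38) for 158359 of 194142 rows (81.6%), which held 91.0% to 91.6% of each library's estimated reads. The other rows were left out of the main fits and of the gene sums behind the shares of gene TPM.

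Estimated counts were rounded and fitted with edgeR 4.0.16 in R 4.3.3 (TMM scaling, filterByExpr with a minimum count of 10 and total of 15, robust quasi-likelihood test, two-sided), each comparison on its own 6 libraries and their difference on all 12. A call was a Benjamini-Hochberg adjusted p under 0.05 over all rows tested. An exact permutation test of 3 libraries against 3 cannot give a p below 0.1. Levels are given as deposited TPM and tests as log2 changes of counts, so a change of a TPM share and a log2 change relative to the gene need not be equal. SE is the log2 change divided by the root of its F statistic.

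The design named edgeR's diffSpliceDGE, with the variance pooled within genes, as the share test. Its calls on the real data were seen first. When tested on simulated data, it called more unchanged than changed transcripts. It was then replaced by the same gene offset with the variance estimated per transcript, which did not. After that test gave no call in ML60218, the sum of NMD rows per gene was added, also chosen after results were seen. In both, the gene's own change was estimated with the tested rows included and then taken as fixed. Its uncertainty is in neither the SE nor the p-values. In all, 6 share analyses were run per comparison, the other 3 being limma 3.58.1 on log2 TPM ratios with pseudocounts of 0.1 and 1 and on the ratio to protein_coding rows. Power of the share tests is low: on simulated data most changes of single transcripts relative to their gene were missed.

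Members and gene lists were chosen with earlier results of these data known. Members were named by abundance, by the 6 largest calls in each direction in the share test with groups that do not overlap, and by list. Genes of the type sum, the 12 largest rises and 6 largest falls per comparison, were named after their calls were seen. They were taken from called genes with protein_coding rows whose NMD share did not overlap between the groups, so their lack of overlap is no further support. A few items that these rules select are not reported here. Alternatives were DESeq2 1.42.0, other scaling, no filter, all rows, neighbouring rows assigned, each library left out, and the replicate number as a block.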

Additional observations from a re-analysis of the deposited data

How the results depend on the processing

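The members named by transcript kept the direction of their change under the alternatives tried, whereas the balance of calls in siPOLR3A turned: share calls were 34 higher and 9 lower, but 2 and 4 without siPOLR3A replicate 2, and level calls were 123 and 142, but 75 and 72 without siControl replicate 2 and 87 and 72 without replicate 3. The members' medians of relative change in the share test stayed positive under every alternative, at 0.034 to 0.066 in siPOLR3A and 0.056 to 0.14 in ML60218. Counts of calls depended on the test and on single libraries. The cause was not tested. DESeq2 called 504, 410 and 501 members by level in siPOLR3A, ML60218 and their difference, where edgeR called 265, 65 and 307. With all rows fitted, 43 members were called by level in ML60218.

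In the share test, where 43, 0 and 43 members were called, variance pooled within genes, the test named in the design, gave 23, 20 and 24. Of these, 15, 0 and 4 were shared. The limma test with a pseudocount of 1 gave 78, 5 and 97, the ratio to protein_coding rows 72, 19 and 87, and limma with a pseudocount of 0.1 gave 6 in ML60218. Without the filter on low counts, 1 member was called in ML60218 and 27 in the difference.

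With 1 library left out, level calls ranged from 139 to 161 in siPOLR3A and from 0 to 45 in ML60218, share calls from 6 to 9 in siPOLR3A and from 18 to 42 in the difference, and type sums from 55 to 71, 1 to 17 and 42 to 89. The summed share of members differed by 0.13 to 0.25 points in siPOLR3A and by 0.60 to 0.80 points in ML60218.

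Same-numbered libraries did not deviate together (correlations of -0.072 to 0.074), so no pairing by number was seen. These correlations cannot tell whether same-numbered libraries were prepared together. With the replicate block, level calls were 93, 0 and 164, share calls 0 in siPOLR3A, 0 in ML60218 and 5 in the difference, type sums 64, 2 and 37, and decay factors 19 and 13.

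Many members are of low abundance: the median member has 2.52 TPM and 354 are at 0 in a library.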
